A study of Mus musculus with 6 samples.

Results

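Carboxylesterases are described here through 10 genes of mouse liver, Ces1c, Ces1d, Ces1e, Ces1f, Ces1g, Ces2a, Ces2c, Ces2e, Ces3a and Ces3b, taken by gene name from a deposited table of 30889 genes that lists 20 carboxylesterase genes in all. The RNA came from livers of mice treated by mouth for 14 days, 3 libraries from mice given phosphate buffered saline (control) and 3 from mice given a water extract of the herb Emilia sonchifolia (extract). Strain, sex, age and dose are not given in the sources used here. Whether the libraries come from separate animals is not stated in the labels, and the p-values then describe differences against the spread of these 6 libraries, part of which may be technical.

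Carboxylesterases are serine hydrolases that split esters, amides and thioesters of drugs, pesticides and lipids, and liver is a main site of their expression. The enzymes enter the endoplasmic reticulum (ER), where those that end in a His-X-Glu-Leu retrieval signal are kept and those without it can be secreted. In the mouse the family has expanded by tandem gene duplication. Some members are known as drug and pesticide hydrolases, and others act on stored triacylglycerol that hepatocytes use for very low density lipoprotein (VLDL).

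The genes lie in 2 blocks on chromosome 8 (coordinates as the table gives them, which are those of GENCODE M21 on GRCm38 for every carboxylesterase gene except Ces2f). The first block runs from Ces1a to Ces5a, chr8:93020214-93535830, with 9 carboxylesterase genes on the minus strand over 516 kb. It holds the members Ces1c (ENSMUSG00000057400, chr8:93099015-93131283), Ces1d (ENSMUSG00000056973, chr8:93166068-93197838), Ces1e (ENSMUSG00000061959, chr8:93201218-93229619), Ces1f (ENSMUSG00000031725, chr8:93256236-93279747) and Ces1g (ENSMUSG00000057074, chr8:93302369-93337308). The second runs from Ces2a to Ces4a, chr8:104734003-105150109, with 11 on the plus strand over 416 kb. It holds Ces2a (ENSMUSG00000055730, chr8:104734003-104741634), Ces2c (ENSMUSG00000061825, chr8:104847068-104854483) and Ces2e (ENSMUSG00000031886, chr8:104926260-104934672), followed by Ces3a (ENSMUSG00000069922, chr8:105048601-105058413) and Ces3b (ENSMUSG00000062181, chr8:105083753-105093929). The coding sequences of the members hold 554 to 571 codons, and the codon of the catalytic serine lies in exon 5 of each. The stretch around it is shown for 6 members because it holds the active site that makes these proteins esterases. The serine codon is in capitals, and GRCm38 positions follow each name.
Ces1c (chr8:93123112-93123144, minus strand): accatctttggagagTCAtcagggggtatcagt
Ces1d (chr8:93187755-93187787, minus strand): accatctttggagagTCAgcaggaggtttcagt
Ces1g (chr8:93328390-93328422, minus strand): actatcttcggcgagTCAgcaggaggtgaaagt
Ces2c (chr8:104850759-104850791, plus strand): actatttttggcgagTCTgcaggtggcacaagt
Ces3a (chr8:105051577-105051609, plus strand): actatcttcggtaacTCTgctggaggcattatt
Ces3b (chr8:105086667-105086699, plus strand): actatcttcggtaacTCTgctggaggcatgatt
The serine of Ces1c was placed by aligning its coding sequence with that of Ces1d, with which it shares 30 of the 33 bases shown. Those of the other members were found by the pattern Gly-X-Ser-Ala-Gly followed by Gly or Ala.

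The last 30 coding bases, stop codon left out, are shown because they separate the members that carry the ER retrieval signal from those that do not. The final 4 codons are in capitals.
Ces1c (chr8:93099168-93099197, minus strand): acagaccctactgaacacACAGAACACAAA
Ces1d (chr8:93166258-93166287, minus strand): aggccatcccacagggaaCATGTTGAGCTC
Ces1g (chr8:93302908-93302937, minus strand): aggtcatcccatagggaaCATGTTGAACTG
Ces2a (chr8:104741384-104741413, plus strand): aagggttctcaggacaagCATGCAGAGCTG
Ces2e (chr8:104933682-104933711, plus strand): aaggggtctcaggagaggCACAAAGAGTTG
Ces3a (chr8:105058071-105058100, plus strand): cagagaagcaggaaagttCCAGAGGAGCTC
Read as codons, the ends of 7 members spell His-X-Glu-Leu: Ces1d, Ces1e, Ces1f, Ces1g, Ces2a, Ces2c and Ces2e. The other 3, Ces1c, Ces3a and Ces3b, do not, and the ends of Ces3a and Ces3b are the same 30 bases. The members with and without the signal both include strong risers, as the values below show.

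Levels are given as FPKM, fragments scaled for transcript length and sequencing depth, as deposited, so that genes can be compared per length. Fold changes come from edgeR's quasi-likelihood test on the deposited estimated counts, extract over control, with a Benjamini-Hochberg adjusted p under 0.05 over 18071 tested genes as the call. The fit scales libraries with TMM factors, so its folds run slightly above the ratios of FPKM. Library totals were 51219533 to 61432016 estimated counts, and 22649 to 24178 genes were above 0. Pearson correlations of log2 FPKM across genes were 0.982 to 0.990 within control, 0.992 within extract and 0.974 to 0.978 between the groups. Hepatocyte markers were abundant: the 9 in the table summed to 38479 to 47394 FPKM in control and 38418 to 39164 FPKM in extract.

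Some libraries stood apart in genes of other tissues. The 7 exocrine pancreas genes summed to 5.89 FPKM in the lowest control library and 56.9 FPKM in the highest, control 3, against 56.9 to 65.2 FPKM in extract. Of these genes Pnlip and Cpa1 were listed at 0 in control 1 and control 2. The 6 skeletal muscle genes summed to 0.789 FPKM in control 3, 186 FPKM in the highest control library and 170.3 to 247 FPKM in extract. Control 3 was the lowest control library for 10 of 10 members. For that reason member results are also given without each control library. How many of all tested genes were lowest in control 3 was not counted, and a link to the pancreas and muscle values was not tested.

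Of the 10 carboxylesterases, 9 rose with the extract, 0 fell and 1, Ces2a, was not called, where 26.9% of all tested genes were called and 14.2% were called higher. The members were chosen with earlier results of these data known, so this count is a description. Of the 6 other carboxylesterases tested, 2 were called higher. All 10 members passed the filter on low counts in this comparison. Their counts ran from 233 to 192060 in a library. For the 9 the FPKM of the groups did not overlap, which was true of 44.6% of tested genes in either direction and of 17.7% with extract higher. Among the 2856 tested genes with a mean of at least 10 FPKM, 29.4% were called higher. The members' median log2 fold change was 0.77, beside -0.02 over all tested genes, and single members lay between the 66.1 and the 97 percentile of all tested log2 fold changes. The median was 0.82 without control 1, 0.77 without control 2 and 0.73 without control 3, and the 9 calls stood in each. Of the calls over all genes 52.6% were higher, and of those made by limma on log2(FPKM + 0.5) 40.7%, which also called the same 9 members higher.

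**Figure D1:**
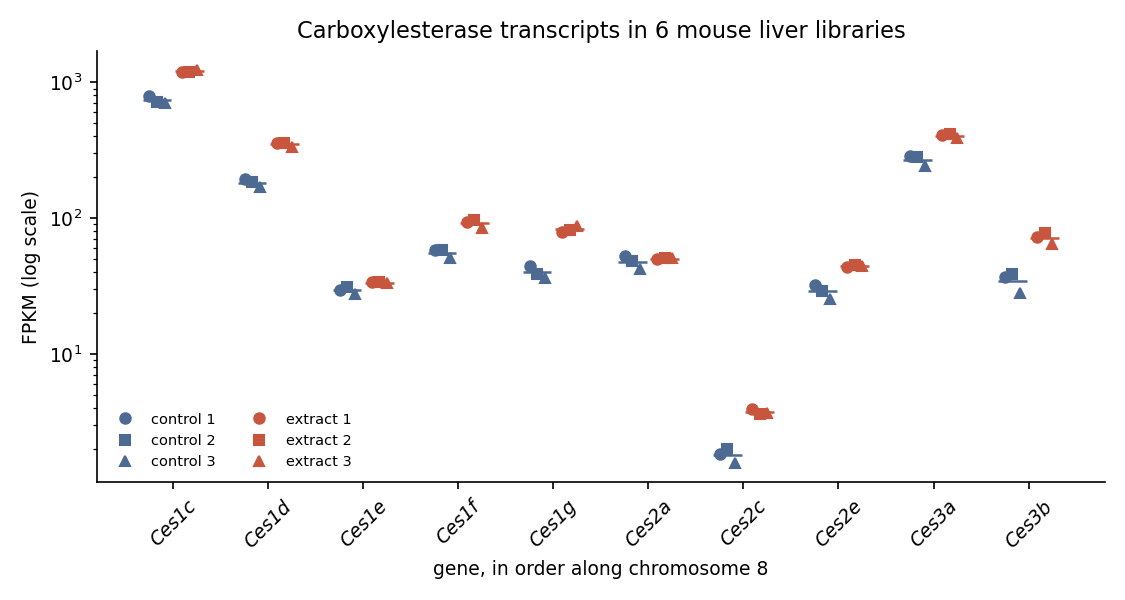
FPKM (log axis) of the 10 carboxylesterases in each library, genes in chromosomal order. Blue marks are the 3 control libraries, red marks the 3 extract libraries, and the short lines are group means. The red marks lie above the blue ones for every gene except Ces2a, where they overlap.

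Ces1c, the secreted esterase of mouse plasma, was the most abundant member. Its FPKM was 799, 719.5 and 702 in control and 1193, 1192 and 1224 in extract. Every extract library was above every control library, and the coefficient of variation of the extract libraries was 1.5%. The log2 fold change was 0.76 ± 0.05 (SE), a 1.70-fold rise (edgeR, adjusted p = 6.67e-05). Ces1c alone made 51.3% of the members' summed FPKM gain.

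Ces1d, also known as triacylglycerol hydrolase, mobilises stored triacylglycerol for VLDL assembly in the ER lumen. It stood at 195, 185 and 169 FPKM in control and at 355, 359 and 333 FPKM in extract. The groups were far apart compared with their spread, and the log2 fold change was 0.99 ± 0.06 (SE; 1.99-fold, edgeR adjusted p = 1.98e-05). With it Ces1d passed Ces1b, which was above it in control and below it in extract.

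Ces1f has also been characterised as a triacylglycerol hydrolase. Its FPKM was 58.6, 58.4 and 50.7 in control against 94.5, 96.6 and 84.4 in extract, with the third library the lowest of each group. The rise was 0.78 ± 0.07 on the log2 scale (SE; 1.71-fold, adjusted p = 0.000137 by edgeR).

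Ces1g, whose loss in mice is known to raise liver lipogenesis and fat, had 44.8, 39.1 and 36.5 FPKM in control. In extract it had 79.6, 81.8 and 88.3 FPKM, all above the highest control library. The log2 fold change was 1.12 ± 0.08 (SE; 2.17-fold, edgeR adjusted p = 7.12e-05).

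Ces1e, or egasyn, holds beta-glucuronidase in the ER. Its FPKM was 29.4, 31.1 and 27.8 in control and 33.8, 33.9 and 33.2 in extract. The groups did not overlap, and the ratio of the lowest extract to the highest control library was the smallest among the 9 members that rose. The log2 fold change of 0.25 ± 0.05 (SE) was 1.19-fold (edgeR adjusted p = 0.00529), and ran from 0.19 to 0.28 over the 17 alternative analyses. Gusb, the gene of beta-glucuronidase itself, stood at 6.14 ± 0.33 FPKM in control and 6.88 ± 0.77 FPKM in extract (SD, n = 3 each) and was not called (log2 fold change 0.22, edgeR adjusted p = 0.0829). Without extract 3 it was called (log2 fold change 0.29, edgeR adjusted p = 0.0444).

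The Ces2 enzymes favour esters with a small acyl group and a large alcohol, among them drugs and diacylglycerol. Ces2a was the only member that was not called. Its FPKM was 53.0, 48.6 and 42.3 in control and 49.8, 50.8 and 50.6 in extract, so the extract libraries lay inside the control range. The log2 fold change was 0.13 ± 0.07 (SE), with a 95% interval from -0.04 to 0.30 (edgeR adjusted p = 0.221). Without control 1 it was called (log2 fold change 0.21, edgeR adjusted p = 0.0387), and without control 3 the log2 fold change was 0.06 (edgeR adjusted p = 0.441).

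Ces2e, known as a pyrethroid hydrolase, had 32.6, 29.1 and 25.4 FPKM in control and 43.7, 45.1 and 44.2 FPKM in extract, with no overlap. The rise was 0.67 ± 0.08 on the log2 scale (SE; 1.60-fold, adjusted p = 0.000721 by edgeR). Ces2c, a hydrolase of drugs and acylglycerols, was the least abundant member, with 1.84, 2.01 and 1.59 FPKM in control and 3.92, 3.66 and 3.68 FPKM in extract. Its counts of 233 to 581 per library were also the lowest. Its rise of 1.11 ± 0.12 on the log2 scale (SE; adjusted p = 0.000374 by edgeR) was close in size to those of Ces1g and Ces3b, at levels that differed by over 10-fold from both.

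Ces3a and Ces3b are liver esterases whose coding sequences were 95.3% identical. Ces3a, the second most abundant member, had 286, 282 and 241 FPKM in control and 409, 414 and 388 FPKM in extract. Its log2 fold change was 0.64 ± 0.06 (SE; 1.56-fold, edgeR adjusted p = 0.000232). Ces3b had 36.7, 39.2 and 28.1 FPKM in control and 72.6, 78.2 and 65.1 FPKM in extract. Its log2 fold change was 1.12 ± 0.11 (SE; 2.17-fold, edgeR adjusted p = 0.000337). The third library was the lowest of its group for both genes, and the groups overlapped for neither.

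Spread within a group was smaller in extract for 10 of 10 members: coefficients of variation of FPKM ran from 5.46% to 16.8% in control and from 1.10% to 9.14% in extract. Of the other carboxylesterases above 10 FPKM, Ces2g went the same way (6.57% and 1.80%) and Ces1b the other (2.57% and 3.38%). The share of all tested genes with the smaller spread in extract was not counted. Correlations over all tested genes were also higher within extract (0.992) than within control (0.982 to 0.990). The groups hold 3 libraries each, which limits what these values can say about spread. Control 1 was the highest control library for 7 members and control 2 for 3.

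By subfamily, 5 of 5 Ces1 members rose (1.19-fold to 2.17-fold), 2 of 3 Ces2 members (not called to 2.15-fold) and 2 of 2 Ces3 members (1.56-fold to 2.17-fold). The summed FPKM of the 10 members was 1537, 1434 and 1325 in control and 2336, 2355 and 2315 in extract, or 1432 ± 106 against 2335 ± 20.3 (SD, n = 3 each). The ratio was 1.63, and 1.64 without Ces1c. The 8 Ces1 genes together went in FPKM from 1295 to 2038, the 8 Ces2 genes from 90.6 to 112 and the 2 Ces3 genes from 304 to 476, ratios of 1.57, 1.23 and 1.56. These sums carry no test of their own.

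**Figure D2:**
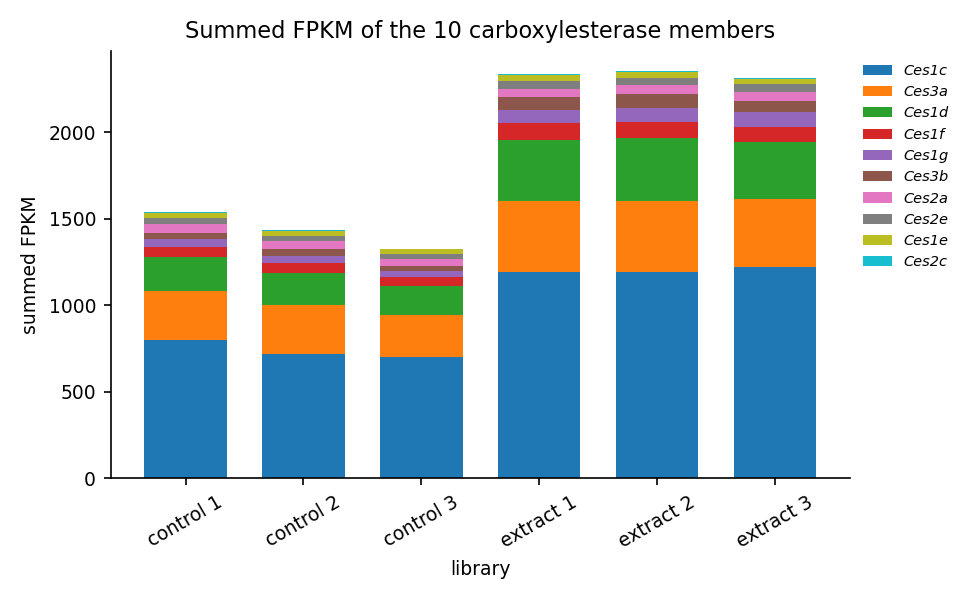
Summed FPKM of the 10 carboxylesterases in each library, stacked by gene in order of mean extract level. The bars stand between 1325 and 1537 FPKM in control and between 2315 and 2355 FPKM in extract, and Ces1c is the largest part of each.

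The make-up of the pool is given as a description. Ces1c held 51.7% ± 1.44 of the summed FPKM in control and 51.5% ± 1.19 in extract (SD, n = 3 each). Ces1d went from 12.8% ± 0.10 to 14.9% ± 0.49, while Ces3a went from 18.8% ± 0.76 to 17.3% ± 0.44. Ces2a went from 3.34% ± 0.13 to 2.16% ± 0.03 and Ces1e from 2.06% ± 0.13 to 1.44% ± 0.01. Only the shares of Ces1c and Ces1f overlapped between the groups, so a share without overlap was not particular to these genes. These shares sum to 100% in each library, so a lower share is no lower level.

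In order of level among all 20 genes, control ran Ces1c, Ces3a, Ces1b, Ces1d, Ces1f, Ces2a, Ces1g, Ces3b, Ces1e, Ces2e, Ces2g and Ces2c. In control the libraries of Ces3a and Ces1b overlapped, as did each neighbouring pair from Ces1f to Ces2e. In extract the order ran Ces1c, Ces3a, Ces1d, Ces1b, Ces1f, Ces1g, Ces3b, Ces2a, Ces2e, Ces1e, Ces2g and Ces2c. There the single overlap among these neighbours was between Ces1f and Ces1g. Ces2a went from rank 6 to rank 8, and Ces1g and Ces3b each moved up by 1 place.

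The other 10 carboxylesterase genes in the table were mostly silent in liver. Below 0.5 FPKM in every library were 7: Ces1a, Ces1h, Ces2b, Ces2f, Ces2h, Ces4a and Ces5a. Of the 10, 6 were tested and 2 of these were called higher. Ces1b, whose coding sequence is 90.9% identical to that of Ces1c, had 249, 250.5 and 239 FPKM in control and 274, 269 and 287 FPKM in extract, with no overlap (log2 fold change 0.23 ± 0.04 SE, edgeR adjusted p = 0.0062). That call was not made by limma on log2(FPKM + 0.5) without a filter (adjusted p = 0.0515). The pseudogene Ces2d-ps had 0.346, 0.451 and 0.677 FPKM in control and 0.976, 1.5 and 1.02 FPKM in extract (log2 fold change 1.28 ± 0.31 SE, edgeR adjusted p = 0.0185). It lost the call without control 2 (adjusted p = 0.0765), without extract 2 (adjusted p = 0.0770) and with limma without a filter (adjusted p = 0.0530).

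Ces2g, the remaining gene above 10 FPKM, had 11.9, 11.0 and 10.4 FPKM in control and 12.1, 12.2 and 11.8 FPKM in extract, and was not called (log2 fold change 0.17 ± 0.06 SE, edgeR adjusted p = 0.0589). It was called without control 1 (log2 fold change 0.23, edgeR adjusted p = 0.0211) and with counts divided by 4 (edgeR adjusted p = 0.0474). Ces4a was at most 0.326 FPKM, and its call appeared only without control 1 (edgeR adjusted p = 0.0462). Ces1a and Ces2h were tested and not called (edgeR adjusted p = 0.626 and 0.347). Ces1h was at 0 counts in 5 libraries and at 57 in extract 2.

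**Figure D3:**
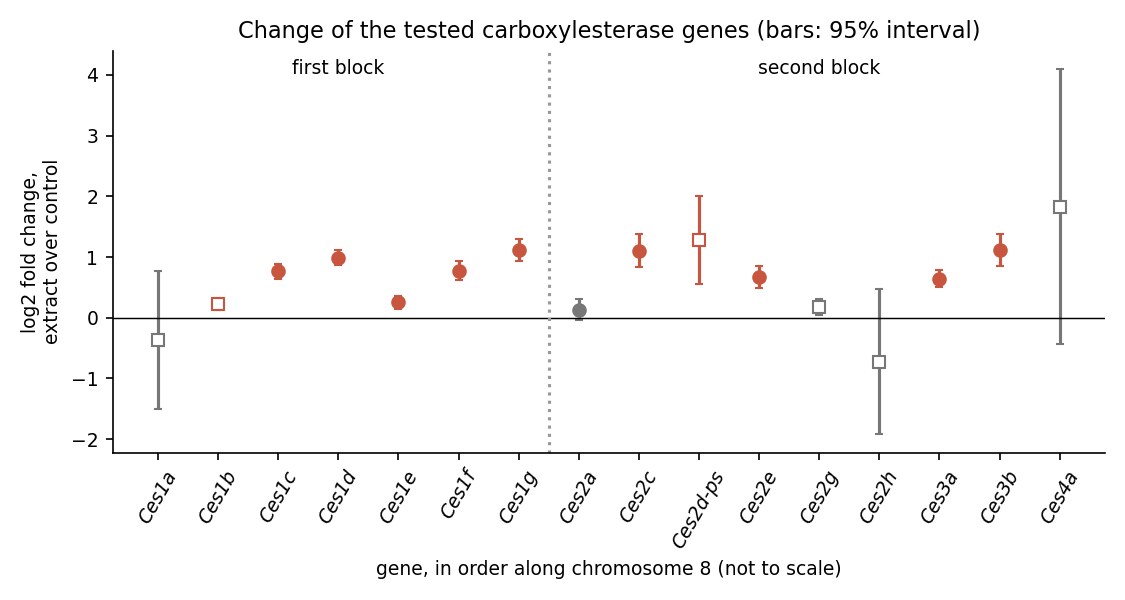
Log2 fold change, extract over control, of the 16 tested carboxylesterase genes in chromosomal order, with 95% intervals. Filled circles are the members, open squares other carboxylesterases, red is called higher and grey not called. Ces1e and Ces2a sit lowest among the members, beside neighbours at 0.78 to 1.11, and the widest intervals belong to genes under 0.5 FPKM.

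Ratios of adjacent genes compare the sizes of their changes. A ratio of 2 genes within a library does not depend on how the libraries are scaled. It was taken for 10 pairs of carboxylesterases next in order with at least 1 FPKM, passing over any other genes between them. Ces1e and Ces1d lie 3.38 kb apart, and the ratio of Ces1e to Ces1d was 0.151, 0.168 and 0.165 in control and 0.0951, 0.0945 and 0.0997 in extract. The ratio of Ces1c to Ces1b, whose genes lie 19.0 kb apart, went from 3.21, 2.87 and 2.94 to 4.36, 4.43 and 4.27. That of Ces3b to Ces3a went from 0.129, 0.139 and 0.116 to 0.178, 0.189 and 0.168. In 10 of 10 pairs the groups did not overlap. Over the whole table this held for 51.5% of 9111 pairs of neighbouring genes, where no gene of at least 1 FPKM was passed over. By that rule Gm45910 would come between Ces1c and Ces1d, Gm45909 between Ces1d and Ces1e, and Gm45724 between Ces3a and Ces3b. The 51.5% is therefore only a rough comparison. Each pair had p = 0.1 by a two-sided exact permutation test, before and after adjustment over the 10, which is the smallest that 3 against 3 can give. The pairs share genes and are not independent.

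Other genes around the blocks were called in both directions, as were all tested genes (14.2% higher and 12.8% lower). Within 250 kb of the first block 5 of the 8 other genes were tested and 2 were called higher. Both lie inside the block. The pseudogene Gm45910, between Ces1c and Ces1d, went from 48.3 ± 4.65 to 67.0 ± 0.46 FPKM (SD, n = 3 each; log2 fold change 0.53, edgeR adjusted p = 0.00104), and 11.7% of its 50-base windows also occur in other genes, mostly Ces1c. Gm45909, an unconfirmed transcript within Ces1d on its strand, went from 3.01 ± 0.38 to 6.13 ± 0.70 FPKM (log2 fold change 1.09, edgeR adjusted p = 0.00159). Ces1d changed by 0.99, and reads of Gm45909 and of unspliced Ces1d RNA cannot be told apart.

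Within 250 kb of the second block 24 of 33 other genes were tested, with a median log2 fold change of -0.05. Called higher were 4 and lower 2, a share near the 26.9% of all tested genes that were called. Gm45724, an unconfirmed transcript on the other strand within the span of Ces3a, had 2.14, 1.2 and 2.58 FPKM in control and 10.8, 10.8 and 11.7 FPKM in extract (log2 fold change 2.54, edgeR adjusted p = 0.000419). Ces3a had a smaller log2 fold change of 0.64. The sources used here do not state whether counting used strand, so reads of Gm45724 and of Ces3a cannot be told apart. D230025D16Rik was higher (log2 fold change 0.35, edgeR adjusted p = 0.00569). So were Pdp2, a subunit of pyruvate dehydrogenase phosphatase (0.55, adjusted p = 0.0106), and Cbfb, a partner of RUNX factors (0.34, adjusted p = 0.0282). Tmem208, an ER protein, and the formin Fhod1 were lower (log2 fold changes -0.32 and -0.42, adjusted p = 0.0197 and 0.0155).
Single libraries carried several of these calls. Pdp2 lost its call without control 2 (adjusted p = 0.0541). Cbfb lost it without control 2, control 3, extract 1 or extract 3 (adjusted p = 0.0705 to 0.103). Tmem208 lost it without any of the libraries but control 1 (adjusted p = 0.0578 to 0.0850), and Fhod1 without control 2 or any extract library (adjusted p = 0.0504 to 0.0637).

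Near-identical stretches bound how well reads can be assigned. Of all 50-base windows of the transcript, 42.2% in Ces2c also occur in another gene, mostly Ces2d-ps, and 76.9% of those of Ces2d-ps occur elsewhere. The share was 30.9% in Ces3a and 26.1% in Ces3b, each with the other alone, 22.2% in Ces2a, mostly with the pseudogene Gm7208, and 17% in Ces1c, mostly with Ces1b. It was 1.28% to 3.36% in Ces1d, Ces1e, Ces1f, Ces1g and Ces2e. The values of Ces2c, Ces2d-ps, Ces3a, Ces3b, Ces1b and Ces1c are therefore uncertain as to how reads were divided, while Gm7208 held at most 23 counts in a library. Over the coding sequence, members were 73.0% to 81.6% identical within Ces1, 82.5% to 83.8% within Ces2, and 52.2% to 55.7% between subfamilies.

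RefSeq promoter sequences on GRCm38.p6 were at hand for 7 of the 10 members (Ces1c, Ces1e, Ces1g, Ces2a, Ces2c, Ces2e and Ces3b). Windows are counted from the RefSeq start, which for Ces1g lies 99 bases and for Ces3b 2 bases from the deposited gene start. Among the other carboxylesterases searched it lies 52 bases away for Ces1h, 23 for Ces2h and 10 for Ces5a. The 250 bases before the start are shown for 2 pairs, each of related genes whose changes differed in size: Ces1b with Ces1c (log2 fold changes 0.23 and 0.76) and Ces2a with Ces2e (0.13, not called, and 0.67). Capitals mark the longest run that the pair shares.
Ces1b (chr8:93080018-93080267, minus strand): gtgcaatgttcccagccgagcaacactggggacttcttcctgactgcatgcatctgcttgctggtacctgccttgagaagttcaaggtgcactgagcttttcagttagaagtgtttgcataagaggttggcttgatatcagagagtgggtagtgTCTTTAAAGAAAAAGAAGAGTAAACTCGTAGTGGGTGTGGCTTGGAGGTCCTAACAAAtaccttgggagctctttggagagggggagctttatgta
Ces1c (chr8:93131284-93131533, minus strand): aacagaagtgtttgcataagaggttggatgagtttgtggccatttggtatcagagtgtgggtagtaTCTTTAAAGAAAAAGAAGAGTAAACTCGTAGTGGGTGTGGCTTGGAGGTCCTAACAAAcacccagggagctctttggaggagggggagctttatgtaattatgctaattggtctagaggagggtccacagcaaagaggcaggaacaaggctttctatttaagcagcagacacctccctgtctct
Ces2a (chr8:104733753-104734002, plus strand): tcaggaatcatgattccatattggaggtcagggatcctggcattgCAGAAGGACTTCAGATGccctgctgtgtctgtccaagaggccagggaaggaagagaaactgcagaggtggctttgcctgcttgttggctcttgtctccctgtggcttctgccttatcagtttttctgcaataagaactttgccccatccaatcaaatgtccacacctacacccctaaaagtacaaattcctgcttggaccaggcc
Ces2e (chr8:104926010-104926259, plus strand): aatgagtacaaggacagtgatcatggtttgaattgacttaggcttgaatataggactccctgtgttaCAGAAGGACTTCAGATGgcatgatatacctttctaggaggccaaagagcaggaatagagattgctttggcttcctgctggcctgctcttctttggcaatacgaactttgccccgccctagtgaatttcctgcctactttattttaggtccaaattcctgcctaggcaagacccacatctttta
The run shared by Ces1b and Ces1c is 58 bases long and begins 96 bases before the start of Ces1b and 184 bases before that of Ces1c. That of Ces2a and Ces2e is 17 bases long and begins 205 and 183 bases before the start.

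Both strands of these 250 bases were searched for 11 short words. TTNNGNAA, a C/EBP word, was in 7 of 7 members' windows and in 36.9% of 32851 mouse promoters of the same length. Of the carboxylesterases that are not members, Ces1a, Ces1b, Ces2f, Ces2h and Ces4a held it too, while Ces1h, Ces2g and Ces5a did not. It is therefore not particular to the genes that rose. CCAAT was in 5 of 7 members' windows, against 33.9%, and TATAAA in 2 of 7, against 12.4%. CCAAT was also in the windows of Ces1a, Ces2g, Ces2h and Ces5a, and TATAAA in that of Ces1h. The nuclear receptor half-site AGGTCA was in 1 member's window (Ces2a), against 14.0%. The FOXA word TGTTTGC was in 1 (Ces1c), against 4.30%, where it overlaps a C/EBP match. The window of Ces1b, not a member, holds TGTTTGC as well, so this word does not separate the pair Ces1b and Ces1c. No member's window held the FOXA word TGTTTAC (3.17% of promoters), a spaced HNF1 motif (0.06%), the HNF4 word CAAAGTCCA (0.38%), the antioxidant response word TGACNNNGC (10.2%), the E-box CACGTG (6.02%) or the STAT word TTCNNNGAA (7.02%). These are matches of letters, and binding was not measured.

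The other gene lists give the setting of the members. They were written with earlier results of these data known, so their counts are descriptions. The counts of every list below stand beside 26.9% of all tested genes called, 14.2% higher and 12.8% lower. Among tested genes with a mean of at least 10 FPKM, 29.4% were called higher. Of 27 other ester hydrolases of lipids and drugs, 9 rose and 1 fell, with a median log2 fold change of 0.13, and without extract 3 the calls dropped from 10 to 6. Nceh1, a cholesteryl ester hydrolase, went from 2.91 ± 0.09 to 4.54 ± 0.03 FPKM (SD, n = 3 each; log2 fold change 0.70, edgeR adjusted p = 0.000127). The lactonase Pon3 (0.46), the hydrolase Abhd2 (0.34) and the phospholipase Pnpla8 (0.33) rose as well (adjusted p = 0.000287, 0.00148 and 0.00177). Aadac, a deacetylase of the ER with a substrate range near that of the carboxylesterases, had 122 ± 1.96 FPKM in control and 117 ± 3.0 FPKM in extract and was not called (adjusted p = 0.964). Hepatic lipase, Lipc, had 53.4 ± 1.0 and 48.6 ± 0.49 FPKM and was not called (log2 fold change -0.07, adjusted p = 0.184), though it was called lower when libraries were scaled by their totals (log2 fold change -0.12, adjusted p = 0.0373) and by limma on FPKM (adjusted p = 0.0252 to 0.0257).

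**Figure D4:**
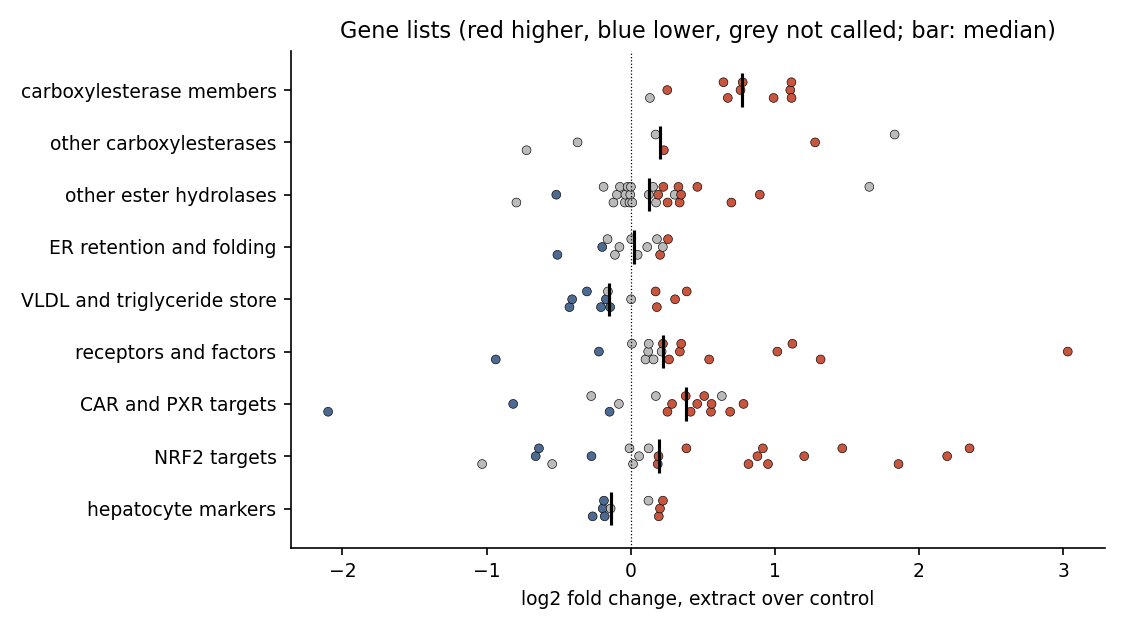
Log2 fold change, extract over control, of each tested gene in 9 lists. Red is called higher, blue lower and grey not called, and the black bar is the list's median. The members' median is 0.77, and the medians of the other lists run from -0.15 to 0.38.

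Among 12 genes of ER retention and folding, 2 rose and 2 fell (median 0.03). Calr, the lectin chaperone calreticulin, fell from 245 ± 11.3 to 165 ± 2.24 FPKM (log2 fold change -0.51, edgeR adjusted p = 0.000183), and its partner Pdia3 was lower (-0.20, adjusted p = 0.0201). Pdia3 was not called with the replicate number as a block (adjusted p = 0.0528) or without extract 1, extract 2 or extract 3 (adjusted p = 0.0691 to 0.0967). Canx (0.20, adjusted p = 0.0101) and the folding sensor Uggt1 (0.26, adjusted p = 0.00382) were higher. Upper-quartile factors, library totals and limma on filtered FPKM each called 7 of the 12.

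Of 12 genes of VLDL assembly and the triacylglycerol store, 4 rose and 6 fell (median -0.15), and without extract 1 the calls dropped from 10 to 6. Mttp, the transfer protein that loads lipid onto apolipoprotein B, rose by 0.39 on the log2 scale (adjusted p = 0.000717) and Apob itself by 0.31 (adjusted p = 0.00486). Pla2g12b, a secretion cofactor for VLDL, fell by 0.42 (adjusted p = 0.00473) and the lipid droplet coat Plin2 by 0.21 (adjusted p = 0.00684). The rises of Ces1d and Ces1g stood beside changes in both directions among genes that handle the same lipid.

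Carboxylesterase genes are known targets of the xenobiotic receptors CAR and PXR, of NRF2 and of PPARalpha. Of 17 receptors and transcription factors listed, 9 rose and 2 fell (median 0.22). Ppara went from 11.5 ± 1.75 to 24.1 ± 1.21 FPKM (log2 fold change 1.12, edgeR adjusted p = 0.000207), Foxa2 from 4.49 ± 0.20 to 10.7 ± 0.78 FPKM (1.32, adjusted p = 1.98e-05) and Ahr from 3.60 ± 0.14 to 7.0 ± 0.18 FPKM (1.02, adjusted p = 2.01e-05). Hnf4a rose by 0.22 (adjusted p = 0.00538). The repressor Nr0b2 fell by 0.94 (adjusted p = 4.42e-05). Transcripts of CAR (Nr1i3, 80.2 ± 3.35 and 77.4 ± 2.67 FPKM) and NRF2 (Nfe2l2, 16.3 ± 0.83 and 16.8 ± 0.68 FPKM) were not called (adjusted p = 0.909 and 0.21). PXR (Nr1i2) was lower (log2 fold change -0.22, adjusted p = 0.00856), a call lost without extract 1 (adjusted p = 0.0572).

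Of 17 CAR and PXR targets, 10 rose and 3 fell (median 0.38). Cyp2c29 rose by 0.78 on the log2 scale (adjusted p = 0.000309), Cyp2b10 by 0.69 (adjusted p = 0.00273) and the P450 reductase Por by 0.51 (adjusted p = 0.000134). Gadd45b fell by 2.10 and the transporter Slco1a4 by 0.82 (adjusted p = 7.43e-05 for each). Cyp3a11, the classical PXR target, was not called (731 ± 33.4 and 662 ± 14.3 FPKM, log2 fold change -0.08, adjusted p = 0.22), though it was lower with library totals (-0.13, adjusted p = 0.0438) and with limma on filtered FPKM (adjusted p = 0.0407 to 0.0416).

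Of 21 NRF2 targets, 12 rose and 3 fell (median 0.19). The glutathione transferases Gstm3 (log2 fold change 1.86, adjusted p = 4.29e-05) and Gstm1 (0.88, adjusted p = 3.53e-05) were higher, as were Osgin1 (1.47, adjusted p = 2.79e-05), the epoxide hydrolase Ephx1 (1.2, adjusted p = 1.94e-05) and the quinone reductase Nqo1 (0.95, adjusted p = 0.00162). The 3 that fell were the heme oxygenase Hmox1 (log2 fold change -0.66, adjusted p = 0.000194), the pentose phosphate enzyme G6pdx (-0.64, adjusted p = 0.00887) and the glutathione transferase Gsta4 (-0.27, adjusted p = 0.00665), named after their values were seen.

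Profiles most like those of the members at either end were found by the root mean square distance between centred log2(FPKM + 0.5) values over the 6 libraries. The search covered the 2857 genes with a mean of at least 10 FPKM, and the carboxylesterases among these were left out. For Ces3b, the member with the largest rise, they were the glutathione transferase Gstm2 (distance 0.0866), the peroxisomal hydrolase Nudt7 (0.0874) and the secreted protein Tsku (0.0906), with log2 fold changes of 1.03, 1.02 and 1.19. For Ces2a, the member with the smallest, they were the antitrypsin gene Serpina1d (0.0247), the glutamine transporter Slc38a3 (0.0257) and the ubiquitin ligase Rnf5 (0.0266), with log2 fold changes of 0.12, 0.11 and 0.11.

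Markers of other cells moved with the groups as well. In bulk tissue, fewer cells of a type and less RNA per cell cannot be told apart. All 6 red cell markers fell (summed 1272 to 1616 FPKM in control, 198 to 236 FPKM in extract), as did 8 of 9 neutrophil markers (385 to 457 and 172 to 179.9 FPKM, and 55.2 to 116 and 9.56 to 13.0 FPKM without Lcn2, the most abundant) and 10 of 10 Kupffer cell markers (457 to 480.4 and 275 to 292 FPKM). Of 7 B cell markers 5 fell (86.0 to 147 and 36.9 to 46.4 FPKM), of 8 T and NK cell markers 4 (7.09 to 8.41 and 4.12 to 4.51 FPKM) and of 8 sinusoidal endothelial markers 5 (50.7 to 56.8 and 40.5 to 42.5 FPKM).

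Stellate cell markers split, with 2 of 8 higher and 1 lower (31.4 to 38.1 and 35.0 to 41.7 FPKM), and 1 of 6 bile duct markers fell (35.9 to 49 and 29.1 to 36.7 FPKM). Of 6 enterocyte markers, from a tissue rich in Ces2 enzymes, 1 fell, Fabp2, with 52.4 to 54.3 FPKM in control and 31.8 to 34.3 FPKM in extract (58.2 to 61.3 and 34.9 to 37.5 FPKM for the list). Of 5 kidney tubule markers 1 was called higher, Kap, with 18.7 to 29.1 FPKM in control and 29.4 to 32.7 FPKM in extract (20.8 to 32.1 and 32.3 to 36.0 FPKM for the list), and the call was lost in 11 of 17 alternatives. The adipocyte list, with 5 genes present and 2 tested, held 0 calls (1.03 to 3.57 and 0.680 to 4.25 FPKM). Among the 9 hepatocyte markers 3 rose and 4 fell (median -0.14), while the pancreas and muscle lists held 0 calls. No marker was at 0 in all 6 libraries. Without control 3 the 7 pancreas genes were all called higher, and without single libraries the B cell, T and NK cell, endothelial, stellate, kidney, bile duct, enterocyte and hepatocyte counts moved by over 1.5 times. The part of these cells in the rise of the carboxylesterases was not tested.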

How the data were processed

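Per the labels' protocols, liver RNA was captured with oligo(dT) beads. Tools named in the submitters' processing notes are HISAT2 2.0.4, StringTie 1.3.4d, cutadapt 1.9 and edgeR, but not what each did. The sources used here do not give genome build, annotation, strand use or read length. The deposited table gives, per the file headers, estimated counts and FPKM for each gene and library. The estimated counts deposited by the authors are whole numbers whose low values peak at 4 (6292 entries, against 4117 at 3 and 2133 at 5), so a read pair may add about 4 counts and a few counts may be 1 pair. The deposited FPKM adds scaling for transcript length and depth. The table has 6 further columns of per-sample values that fit no label, and these were left out.

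The main test was the edgeR 4.0.16 fit of all counts under R 4.3.3 (filterByExpr, TMM factors, quasi-likelihood test, two-sided, Benjamini-Hochberg over 18071 genes, threshold 0.05) on all 6 libraries. Standard errors of log2 fold changes derive from the estimate and its F value. FPKM values are mean ± SD or single libraries. The steps were tested on simulated data. The alternatives were other scaling factors, no filter, counts divided by 4, DESeq2 1.42.0, limma 3.58.1 on log2(FPKM + 0.5), with 0.1 and 1 as other pseudocounts and a minimum mean of 1 FPKM in a group or none, the replicate number as a block, and each library left out in turn.

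The members, lists, motifs and comparisons were chosen with earlier results of these data known. Named genes are all carboxylesterases in the table, up to 4 genes of each list with the smallest p plus 11 chosen liver genes, called genes within 250 kb of either block, and the 3 profiles most like Ces3b and Ces2a. Of the marker lists only the cell type counts and, after their values were seen, some single markers are named. The listed markers Tf and Lep were not analysed here. A red cell marker is not reported here and was left out of its list. Sequences come from GENCODE M21 transcripts (GRCm38) and RefSeq promoters (GRCm38.p6), and coding sequences were aligned with MAFFT 7.526. Identity counts aligned bases without gaps.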

Additional observations from a re-analysis of the deposited data

How the results depend on the processing

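Of the 10 members, 9 kept their direction and their call in all 17 alternatives (log2 fold changes of 0.19 to 1.2), and Ces2a was called in 1 of them, without control 1. The members called higher numbered 9 in 16 alternatives and 10 in that one, and 0 were called lower in any. The summed FPKM of the members had an extract to control ratio of 1.63, which became 1.70 with FPKM scaled to a common sum and 1.69 over the TMM factors, and ranged from 1.57 (without control 3) to 1.69 (without control 1) when single libraries were left out. Over all genes, 4870 were called, 2561 of them higher (52.6%) and 2309 lower. limma on log2(FPKM + 0.5) called 4410, of which 40.7% were higher, and without its filter it called 1485 higher. Leaving out single libraries gave 3237 (without extract 2) to 4706 calls in all, 1776 to 2553 higher and 1442 (without control 2) to 2153 lower, with 1480 lower without extract 1 and 1461 without extract 2. The cause was not tested. Aadac, not called, had a log2 fold change of -0.003 that turned positive with RLE factors (0.00219), with DESeq2 (0.00343) and ranged from -0.0144 to 0.0116 when single libraries were left out. Nr1i3, not called, turned from 0.01 to -0.0337 with upper-quartile factors, -0.0404 with library totals, -0.0516, -0.0519 and -0.0513 with limma at pseudocounts of 0.5, 0.1 and 1, and -0.0516 without its filter, and ranged from -0.0233 (without control 1) to 0.0425 (without control 3) when single libraries were left out. With the replicate number as a block, edgeR called 3746 genes, 2044 higher and 1702 lower, and 9 members higher. Deviations from the group mean had correlations of -0.148, -0.0194 and -0.0978 between libraries of the same number. Of the 6 libraries 0 correlated best with their own number. No pairing by number was seen, though with 3 libraries a group a weak one could be missed. Among genes named here the block ended the calls of Pdia3 and Kap. With 3 libraries a group the 95% interval of the log2 fold change of Ces2a reaches 0.30, so a rise of that size cannot be told from none.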
